A study of Mus musculus with 18 samples.

Results

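The 33 genes described here encode the transporters that carry glucose into muscle cells and lactate out of them, the enzymes that turn glucose into lactate, and the enzymes that build and break down glycogen. They were taken by gene symbol from a list drawn up by function. All 33 were found on the array, with 55 probes between them, among the 19057 genes that the array's probes name. A gene was represented by its brightest probe over the 18 arrays, and 15 of the 33 genes had several probes. The cells were C2C12 myotubes, muscle fibre-like cells formed by fusion of a mouse myoblast line. They had been kept in DMEM with 2% horse serum and exposed to 1 uM of the synthetic glucocorticoid dexamethasone (Dex) or to its vehicle ethanol at the matching 0.01% of the medium volume. Illumina bead arrays for mouse genes were hybridised with RNA from 4 Dex and 4 ethanol samples after 6 h, and from 5 Dex and 5 ethanol samples after 24 h. All samples came from this single cell line, and no label says that replicates were separate cultures, so p-values measure the spread between these samples only, which may be technical. The study's design text speaks of triplicates, whereas the labels number 4 and 5 samples per group, and how these counts relate is not stated.

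In muscle, glucose enters through facilitative transporters, of which the insulin-responsive one is GLUT4. It is trapped as glucose 6-phosphate by hexokinase and then either stored as glycogen or sent down glycolysis, whose pace is set largely at phosphofructokinase. Several steps are run by isozymes from separate genes, with one form typical of skeletal muscle (Pfkm, Pgam2, Eno3, Pygm) and others found widely, in brain or in liver. Glucocorticoids are known to lower insulin-stimulated glucose uptake in muscle and to change its glycogen stores.

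The promoters of 3 of these genes are shown because Pfkp had the clearest fall of the 33 genes and Pgam2 and Pygm, a pair of muscle isozyme genes, had the largest rises, all after 24 h. Each sequence runs 5′ to 3′ on the gene's strand from 250 bases before the start of the RefSeq gene to 50 bases after it, in build GRCm38.p6. They lie at chr13:6648722-6649021 (Pfkp, minus strand), chr11:5803747-5804046 (Pgam2, minus strand) and chr19:6384158-6384457 (Pygm, plus strand). Capitals mark matches on either strand to AGAACA, a half-site of the glucocorticoid response element, to CAGCTG, an E-box of the kind bound by myogenic factors, to GGGCGG, the GC box, and to the MEF2 consensus.
Pfkp: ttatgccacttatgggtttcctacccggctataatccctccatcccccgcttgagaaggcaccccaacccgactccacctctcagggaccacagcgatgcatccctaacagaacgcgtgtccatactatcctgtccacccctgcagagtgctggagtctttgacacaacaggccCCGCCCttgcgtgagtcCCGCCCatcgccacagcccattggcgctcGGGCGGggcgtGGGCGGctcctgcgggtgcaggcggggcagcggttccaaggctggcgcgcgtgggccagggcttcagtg
Pgam2: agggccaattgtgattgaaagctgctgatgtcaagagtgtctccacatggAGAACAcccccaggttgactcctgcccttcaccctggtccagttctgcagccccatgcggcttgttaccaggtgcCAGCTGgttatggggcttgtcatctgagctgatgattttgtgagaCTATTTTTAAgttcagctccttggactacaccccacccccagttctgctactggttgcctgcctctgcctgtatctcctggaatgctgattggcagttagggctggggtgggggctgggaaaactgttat
Pygm: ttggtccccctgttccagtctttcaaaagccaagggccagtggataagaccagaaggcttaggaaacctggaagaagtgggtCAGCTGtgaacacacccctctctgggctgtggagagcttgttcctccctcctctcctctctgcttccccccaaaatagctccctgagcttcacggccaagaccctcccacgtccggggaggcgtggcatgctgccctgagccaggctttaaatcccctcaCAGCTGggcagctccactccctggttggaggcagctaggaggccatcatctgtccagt

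The Pfkp promoter held 4 matches to GGGCGG and none to the other motifs, and 64.7% of its bases were G or C. The Pgam2 promoter held 1 match to AGAACA, 1 to CAGCTG and 1 to the MEF2 consensus, and the Pygm promoter 2 matches to CAGCTG. Of 32851 RefSeq promoters of the same length, 35.7% held GGGCGG, 19.0% AGAACA, 16.3% CAGCTG and 3.19% the MEF2 consensus. RefSeq promoters were found for 31 of the 33 genes, 42 promoters in all. Among these, 23 held GGGCGG, 10 AGAACA, 9 CAGCTG and 1, that of Pgam2, the MEF2 consensus. None held the full element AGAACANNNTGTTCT, which occurred in 3 of the 32851 promoters. These matches describe letters in a short window and do not show that a factor binds there.

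Known targets of the glucocorticoid receptor were higher in all Dex arrays. Fkbp5, whose product is a chaperone partner of that receptor, read 4180 ± 229 with Dex and 274 ± 21.0 with ethanol at 6 h (SD, n = 4 each), and Tsc22d3 and Per1 rose at both times as well. All 10 measured myotube markers were brighter than the median gene. All 5 adipocyte and all 4 liver markers were dimmer than it, as were 4 of 5 osteoblast markers. Of 5 measured myoblast and cycling markers, 3 were brighter and 2 dimmer, so brightness does not set such cells apart from myotubes. The median intensity of an array was 99.8 to 100.4 in the 6 h set but 85.2 to 86.8 in the 24 h set, so levels were compared within a time only. No detection p-values were used here, so whether a dim probe lay above background is unknown. Of the 33 genes, 26 were brighter than the median gene and 7 were not, namely Slc2a4, Slc16a1, Slc16a3, Fbp2, Pgm2, Gbe1 and Phkg1. Readings of those 7 ran from 70.8 to 124 at 6 h and from 65.4 to 109.9 at 24 h. The lowest value on an array was 70.4 to 70.8 at 6 h and 60.4 to 61.2 at 24 h. The lowest readings of Pgm2 and of Gbe1 with Dex at 24 h thus lay near the bottom of the array range. At 24 h the deviations of same-numbered Dex and ethanol arrays from their group means were negatively correlated over all genes. The values were -0.928 for the arrays numbered 1, then -0.756, -0.729, -0.327 and -0.19 for those numbered 2 to 5. In addition, 4 directions in which deviations within a group could spread (1 at 6 h, 3 at 24 h) held under 0.01% of the spread each among bright genes (mean log2 above 12), so the model counts more degrees of freedom than the values hold. A call of the 33 genes or of a marker named below that was lost with those directions as covariates is given with its adjusted p in that fit.

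After 6 h with Dex, 1 of the 33 genes passed the test, Hk1, which fell. A gene was called at a limma adjusted p under 0.05 over all 19057 genes, and at 6 h this held for 9.06% of them, 4.67% being higher and 4.39% lower in Dex samples. Hk1 encodes hexokinase 1, which phosphorylates glucose on its way into glycolysis. It read 248.7, 277.3, 241.6 and 285.5 in the Dex arrays, against 301.4, 305.6, 340.8 and 311.6 in the ethanol arrays. The highest Dex array stayed below the lowest ethanol array, which was so for 10.9% of all genes in either direction. The log2 fold change was -0.26 (SE 0.06, adjusted p = 0.0118), a level 16.5% lower. Once the missing directions were covariates, Hk1 was not called (adjusted p = 0.0696), nor was any of the 33, while 4.46% of all genes were. Nor did Hk1 pass when ethanol replicate 3 (adjusted p = 0.0533) or Dex replicate 3 (0.0526) was left out, or when its probes were averaged (-0.13, adjusted p = 0.112). The second Hk1 probe had a log2 fold change of 0.01 and was not called.

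**Figure D1:**
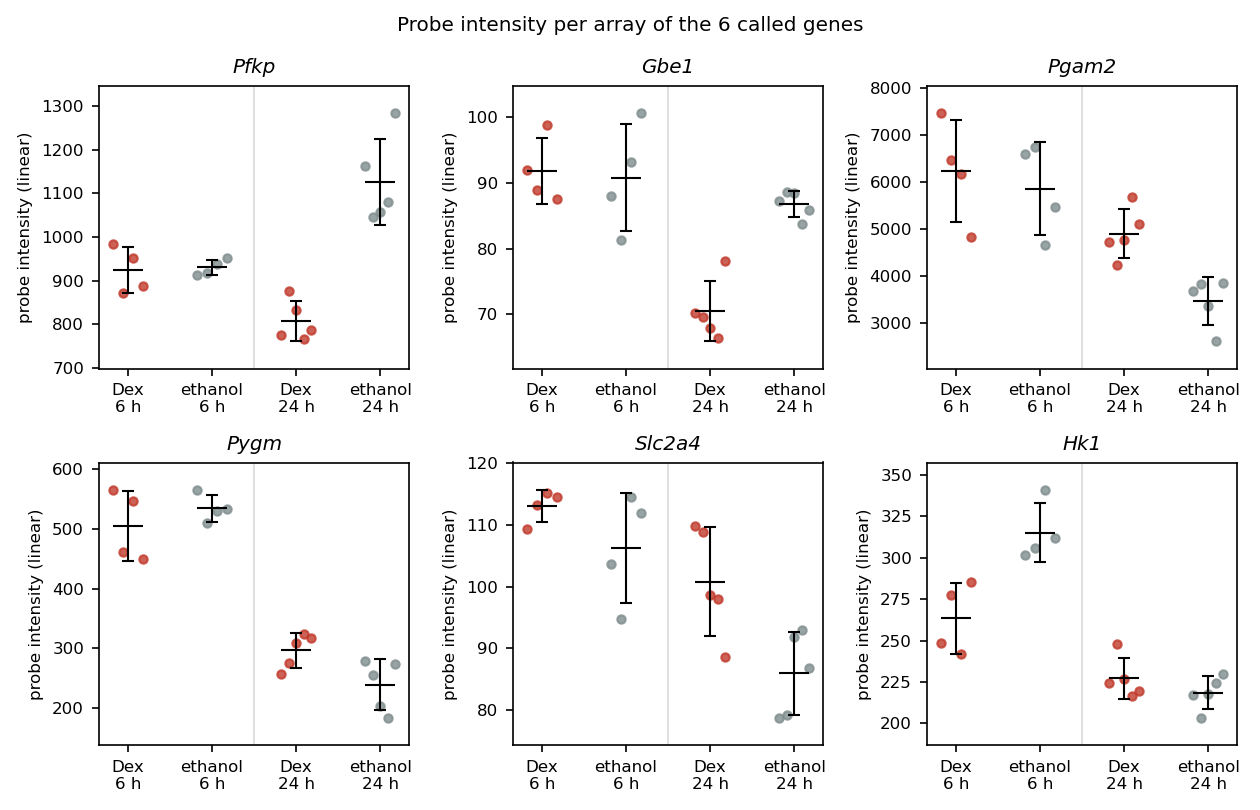
Probe intensity on a linear scale in every array (points) for the 6 genes called in at least 1 comparison, by group on the horizontal axis, with the mean (bar) and SD (whiskers) of 4 arrays per group at 6 h and 5 at 24 h. At 24 h the Dex and ethanol arrays are apart for Pfkp (at most 876.8 against at least 1046.7), Gbe1 and Pgam2, and overlap for Pygm and Slc2a4. At 6 h they are apart for Hk1.

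The other 32 genes were not called at 6 h. Their log2 fold changes lay between -0.24 (Slc2a3) and 0.09 (Slc2a4), and 22 of them were within 0.1 of zero. The 95% intervals of 31 of the 32 lay within 0.5 of zero on the log2 scale, the exception being the neuronal enolase gene Eno2 (-0.55 to 0.09). Slc2a3, which encodes the high-affinity glucose transporter GLUT3, read 125.5, 104.9, 116.1 and 102.9 with Dex, against 141.4, 129.7, 131.6 and 126.6 with ethanol. These groups did not overlap either, as for 10.9% of all genes, but the adjusted p was 0.0755. The p went below the threshold without Dex replicate 1 at 6 h (0.0376) or Dex replicate 5 at 24 h (0.0387). In the other 27 of 29 alternatives Slc2a3 was not called, with an adjusted p of 0.201 once the missing directions were covariates. Its probe was little brighter than the median gene (mean log2 6.78 against 6.68).

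Of the 22 less bright probes of the 33 genes, 2 (9.09%) were called at 6 h in a fit over all 34885 probes with 1 symbol, of which 7% were called. The share is close to that over all probes, and the 2 probes belong to Pgam1 and Gyg. The second probe of Pgam1, the phosphoglycerate mutase found widely outside muscle, read 167.9 with Dex and 219.7 with ethanol (group means), a log2 fold change of -0.38 (SE 0.08, adjusted p = 0.0037). Its brightest probe had -0.11 and was not called. The second probe of Gyg, the glycogenin gene whose protein primes new glycogen, read 1079 with Dex and 1363 with ethanol, a log2 fold change of -0.33 (SE 0.09, adjusted p = 0.0305), against -0.07 for the brightest. When all probes of a gene were averaged, Pgam1 was called at 6 h (-0.25, adjusted p = 0.0210). This was the only 1 of 29 alternatives that called it. The deposited values do not show which probe follows the transcript, so the change of Pgam1 and Gyg at 6 h is uncertain.

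After 24 h with Dex, 3 of the 33 genes rose (Pgam2, Pygm and Slc2a4), 2 fell (Pfkp and Gbe1) and 28 were not called. Of all genes 16.5% were called at this time, 8.39% higher and 8.1% lower, so 5 of 33, or 15.2%, is close to the share over the whole array. With the missing directions as covariates 8.89% of all genes were called, and of the 33 genes Pfkp, Gbe1 and Pgam2 were. At 24 h the Dex and ethanol arrays did not overlap for 3 of the 33 genes, the same Pfkp, Gbe1 and Pgam2, beside 16.3% of all genes.

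**Figure D2:**
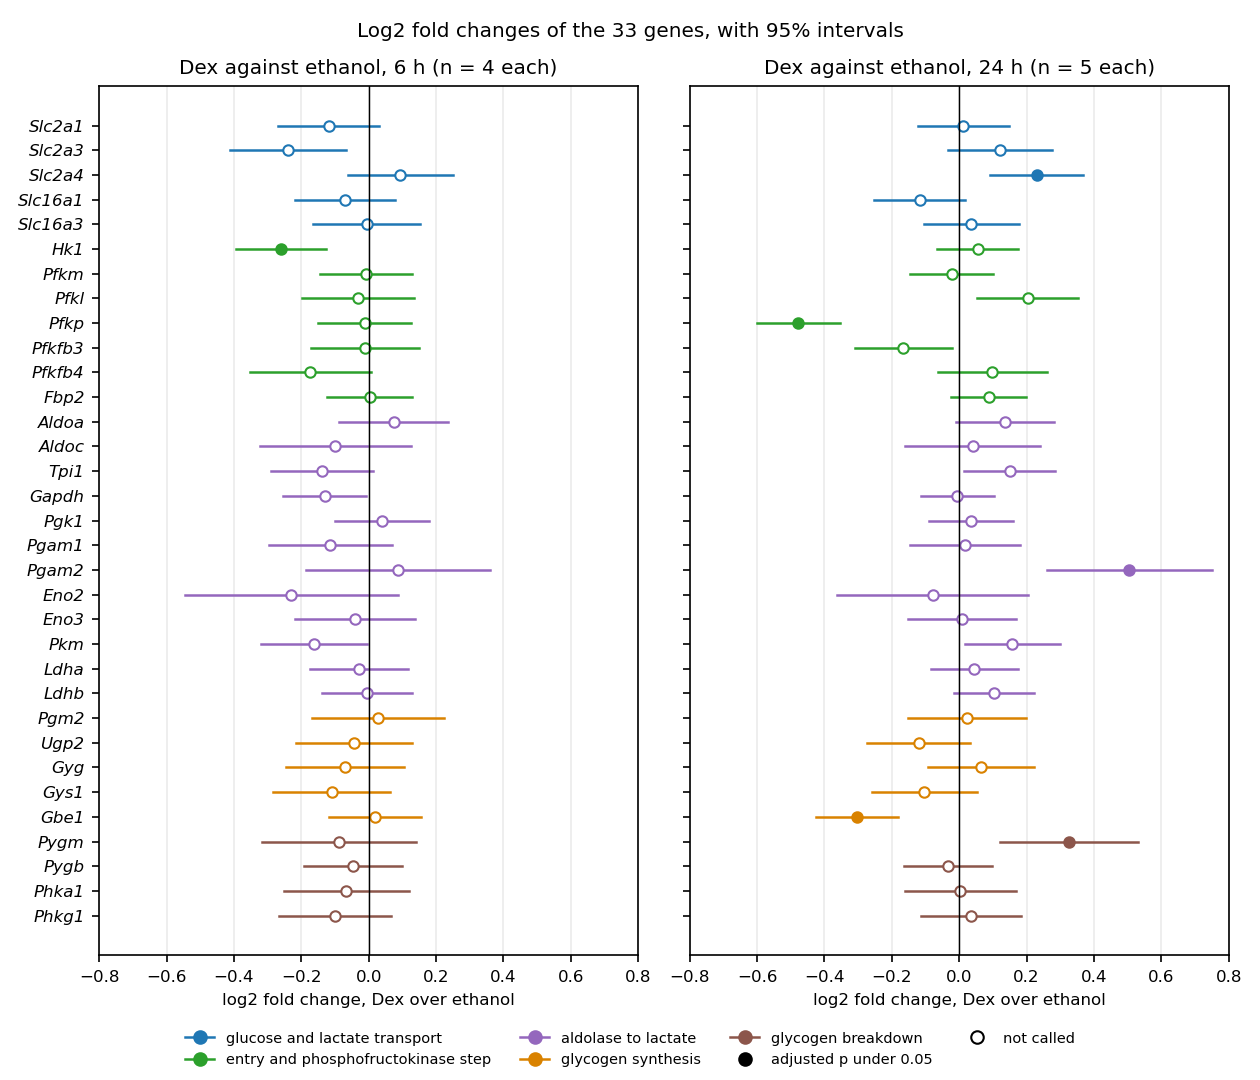
Log2 fold change, Dex over ethanol, of the 33 genes at 6 h (left, n = 4 each) and 24 h (right, n = 5 each), with 95% intervals from the model (lines); colours give the step, and filled points mark an adjusted p under 0.05. At 6 h the filled point is Hk1 at -0.26, and at 24 h the filled points run from Pfkp at -0.48 to Pgam2 at 0.51 while most intervals cross zero.

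Among the transporters, Slc2a4, which encodes GLUT4, rose at 24 h. It read 109.9, 108.9, 98.7, 97.9 and 88.6 with Dex, against 78.7, 79.2, 91.8, 93.0 and 86.7 with ethanol. The lowest Dex array lay below the 2 highest ethanol arrays, and the ethanol readings were near the array median. Its log2 fold change was 0.23 (SE 0.07, adjusted p = 0.0200). It was not called once the missing directions were covariates (adjusted p = 0.0737), nor without ethanol replicate 1 or 2 or Dex replicate 1 or 2 (0.0603 to 0.0652). Without both arrays numbered 1 the adjusted p was 0.142. At 6 h its log2 fold change was 0.09, and the difference between the times was not called (adjusted p = 0.477). Slc2a1, the basal transporter GLUT1, had -0.12 at 6 h and 0.01 at 24 h, with a 95% interval of -0.12 to 0.15 at 24 h. GLUT3 had 0.12 at 24 h. The monocarboxylate transporter genes Slc16a1 (MCT1) and Slc16a3 (MCT4), whose products carry lactate, had -0.12 and 0.04 at 24 h, and their probes were dim.

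At the phosphofructokinase step 1 of 3 isozyme genes was called at 24 h, beside 16.5% of all genes. The called gene was Pfkp, the platelet-type form, which fell. It read 775.6, 876.8, 833.2, 766.7 and 786.2 with Dex at 24 h, against 1162.5, 1046.7, 1058.2, 1080.2 and 1283.5 with ethanol. Every Dex array lay below every ethanol array, as for 16.3% of all genes in either direction. The log2 fold change was -0.48 (SE 0.06, adjusted p = 3.14e-06), a level 28.2% lower. A second Pfkp probe fell too, with group means of 328.3 with Dex and 410.9 with ethanol and a log2 fold change of -0.32 (SE 0.06, adjusted p = 0.0013). The third probe, dimmer than the median gene, had 0.00. The fall was called in all 29 alternatives, with values between -0.51 and -0.27.

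At 6 h Pfkp read 984.1, 870.9, 953.1 and 888.2 with Dex, against 914.1, 918.3, 938.5 and 951.4 with ethanol. These groups overlapped throughout, with a log2 fold change of -0.01 (95% interval -0.15 to 0.13). The Dex effect at 24 h minus that at 6 h was -0.47 (SE 0.09, adjusted p = 0.0037), and it was called in all 28 alternatives of that comparison.

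Pfkm, the muscle form, averaged 12323 ± 713 with Dex and 12531 ± 1064 with ethanol at 24 h (SD, n = 5 each). The log2 fold change of this brightest probe was -0.02, with a 95% interval of -0.14 to 0.10. For this probe the interval does not reach the fall of Pfkp (-0.48). The other 2 Pfkm probes had -0.05 (SE 0.07) and -0.23 (SE 0.11) and were not called, and the latter is less precise. Pfkl, the liver form, read 4039.0, 3808.8, 4144.7, 3875.3 and 3521.9 with Dex, against 3273.3, 3240.2, 3214.6, 3133.1 and 4026.4 with ethanol. Apart from ethanol replicate 5, which lay among the Dex arrays, the groups were separate. The log2 fold change was 0.20 (SE 0.07, adjusted p = 0.0571), and without ethanol replicate 5 it was 0.27 (adjusted p = 0.0083). It was called in 8 of 29 alternatives. The second Pfkl probe had -0.03. Differences between the isozyme genes were not tested.

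The remaining genes at the entry to glycolysis were not called at 24 h. Hk1, lower at 6 h, read 227.1 ± 12.4 with Dex and 218.5 ± 9.84 with ethanol at 24 h (SD, n = 5 each), which is 0.06 on the log2 scale. Its Dex effect at 24 h minus that at 6 h was 0.32 (SE 0.09, adjusted p = 0.0370), but this was called in only 14 of 28 alternatives, and the adjusted p was 0.170 once the missing directions were covariates. Pfkfb3 and Pfkfb4, whose products set the level of the phosphofructokinase activator fructose 2,6-bisphosphate, had -0.17 (adjusted p = 0.108) and 0.10. Without Dex replicate 5 Pfkfb3 had -0.23 (adjusted p = 0.0182), but it was called in only 2 of 29 alternatives. Its probe was barely brighter than the median gene (mean log2 6.683 against 6.681). Fbp2, the muscle fructose-bisphosphatase that runs the step in reverse, had 0.09 on a dim probe.

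Of the 12 genes from aldolase to lactate, 1 was called at 24 h (8.33%, beside 16.5% of all genes). Pgam2, the muscle phosphoglycerate mutase, read 4729.8, 4249.3, 4777.4, 5680.3 and 5101.9 with Dex, against 3684.5, 3842.5, 3372.8, 2618.8 and 3861.0 with ethanol. Every Dex array lay above every ethanol array, and 16.3% of all genes were likewise apart in either direction. The log2 fold change of Pgam2 was 0.51 (SE 0.12, adjusted p = 0.0043), a level 41.9% higher. It was called in all 29 alternatives with values between 0.41 and 0.56. At 6 h Pgam2 read 7464.4, 6480.3, 6175.9 and 4832.0 with Dex, against 6591.6, 6743.8, 4654.2 and 5463.3 with ethanol, a log2 fold change of 0.09 (95% interval -0.18 to 0.36). The difference between the times was not called (0.42, SE 0.18, adjusted p = 0.181), so Pgam2 is not shown to respond at 24 h and not at 6 h. The widely expressed Pgam1 had 0.02 at 24 h (95% interval -0.15 to 0.18).

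The other 11 genes of this stretch were not called. Aldoa, the muscle aldolase, had 0.14 at 24 h, Tpi1, triose phosphate isomerase, 0.15, and Pkm, pyruvate kinase, 0.16, and their adjusted p lay between 0.124 and 0.200. Each of Aldoa and Tpi1 was called without ethanol replicate 5 (adjusted p = 0.0435 and 0.0430). Of 29 alternatives, 1 called Aldoa, 2 called Tpi1 and 1 called Pkm. Gapdh, glyceraldehyde 3-phosphate dehydrogenase and a common reference gene, averaged 17417 ± 434 with Dex and 17492 ± 876 with ethanol at 24 h (SD, n = 5 each). At 6 h it averaged 20540 ± 447 with Dex and 22536 ± 1800 with ethanol (SD, n = 4 each), with log2 fold changes of -0.01 at 24 h and -0.13 at 6 h. Pgk1, phosphoglycerate kinase, had 0.03, Eno3, the muscle enolase, 0.01, Ldha, the lactate dehydrogenase subunit common in muscle, 0.04, and Aldoc, the brain aldolase, 0.04. Ldhb, the heart-type lactate dehydrogenase subunit, had 0.10 and Eno2 -0.08. At 24 h the 95% intervals of all 28 uncalled genes lay within 0.5 of zero on the log2 scale, also with the missing directions as covariates.

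At 24 h 1 of 5 genes of glycogen synthesis (Gbe1) and 1 of 4 of glycogen breakdown (Pygm) were called, beside 16.5% of all genes. Gbe1, which encodes the branching enzyme of glycogen synthesis, read 70.3, 69.6, 68.0, 66.4 and 78.2 with Dex at 24 h, against 87.2, 88.7, 88.5, 83.8 and 85.9 with ethanol. No Dex array reached the ethanol range, and 16.3% of all genes were likewise apart in either direction. The log2 fold change was -0.30 (SE 0.06, adjusted p = 8.03e-04), and all 28 alternatives that could measure it called it. Both probes of Gbe1 are dimmer than the median gene, and the second probe had -0.10 and was not called. The Dex readings lie below the array median and near the lowest values on the 24 h arrays (60.4 to 61.2). At 6 h Gbe1 had 0.02. The difference between the times was -0.32 (SE 0.09, adjusted p = 0.0359) and was called in 13 of 27 alternatives, but not once the missing directions were covariates (0.165).

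Pygm, the muscle glycogen phosphorylase that releases glucose 1-phosphate from glycogen, read 257.0, 275.5, 309.9, 323.5 and 317.2 with Dex at 24 h, against 278.4, 255.2, 203.1, 184.0 and 273.6 with ethanol. The 3 highest Dex arrays lay above all ethanol arrays, and the other 2 lay among them. On the log2 scale Dex was higher by 0.33 (SE 0.10, adjusted p = 0.0251). It was not called once the missing directions were covariates (0.0634), without ethanol replicate 3 or 4, and without Dex replicate 3, 4 or 5 (0.0580 to 0.0883). At 6 h Pygm had -0.09, and the difference between the times was not called (0.41, SE 0.15, adjusted p = 0.109). Without both 24 h arrays numbered 1 that difference was 0.52 (adjusted p = 0.0448), the only 1 of 28 alternatives that called it.

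The other glycogen genes were not called in either comparison. Gys1, the muscle glycogen synthase, had -0.11 at 6 h and -0.10 at 24 h, and its other probes at 24 h had -0.12 and -0.08. Ugp2, which makes the UDP-glucose that the synthase uses, had -0.04 and -0.12, and Gyg 0.06 at 24 h. Pgm2, a phosphoglucomutase, had 0.03 and 0.02 on a dim probe. Pygb, the brain phosphorylase, had -0.05 and -0.03. The phosphorylase kinase subunits Phka1, the muscle regulatory subunit, and Phkg1, the muscle catalytic subunit, had -0.07 and -0.10 at 6 h and 0.00 and 0.03 at 24 h.

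Pgam2, Pygm and Slc2a4 are all genes of mature muscle, so myotube markers are given beside them. Of 10 measured myotube markers, 3 were called at 24 h (30%, beside 16.5% of all genes). Ckm, muscle creatine kinase, rose by 0.30 and Actn2, a Z-disc actinin, by 0.45 on the log2 scale. Myog, the differentiation factor myogenin, fell by 0.32. Actn2 was not called once the missing directions were covariates (adjusted p = 0.0698). The summed intensity of the 10 markers at 24 h ranged from 124721 to 136430 over the Dex arrays and from 123734 to 143283 over the ethanol arrays. Of 5 myoblast and cycling markers, Cdk1, a kinase of mitosis, rose by 0.43 at 24 h, and Myf5, a myoblast determination factor, by 0.33 at 6 h on a dim probe, a call lost in that fit (adjusted p = 0.0616). The summed intensity of these 5 markers at 24 h ranged from 1034 to 1252 over the Dex arrays and from 944.0 to 1108 over the ethanol arrays. No adipocyte marker was called at either time. Of 5 osteoblast markers 1 (Bglap) was called at 6 h, with -0.26 (adjusted p = 0.0098), beside 9.06% of all genes. Of 4 liver markers 1 (Alb) was called at 24 h, with 0.16 (0.0459) on a dim probe, beside 16.5% of all genes. Neither was called in that fit (adjusted p = 0.0640 for Bglap and 0.166 for Alb). The part of either change in the results above was not tested, and in bulk RNA a change in the share of cells of one kind and a change of RNA per cell cannot be told apart.

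Over the 33 genes the log2 fold changes leaned to opposite sides at the 2 times. At 6 h 26 of 33 were negative, with a median of -0.05, beside 9308 of 19057 negative and a median of 0.0030 for all genes. At 24 h 23 of 33 were positive, with a median of 0.03, beside 9524 positive and a median of -6.27e-05 for all genes. For 17 genes the value was negative at 6 h and positive at 24 h, and 1 gene had the opposite pattern. The Dex effect at 24 h minus that at 6 h was positive for 25 of 33 genes, with a median of 0.11, beside 9311 of 19057 positive and a median of -0.0044 for all genes. Of the 12 genes from aldolase to lactate, 11 had a positive difference. The summed intensity of the 33 genes ranged from 150948 to 158524 over the Dex arrays and from 157759 to 166137 over the ethanol arrays at 6 h, and from 125855 to 140152 over the Dex arrays and from 115682 to 141047 over the ethanol arrays at 24 h.

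Single differences between the times passed the test for 3 genes, of which 1 was higher (Hk1) and 2 lower (Pfkp and Gbe1) at 24 h. Over all genes 4.94% were called, 2.46% higher and 2.48% lower. With the missing directions as covariates Pfkp alone of the 33 was called, beside 1.22% of all genes. The lean of the whole group was given no test, since genes measured on the same arrays share their deviations.

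**Figure D3:**
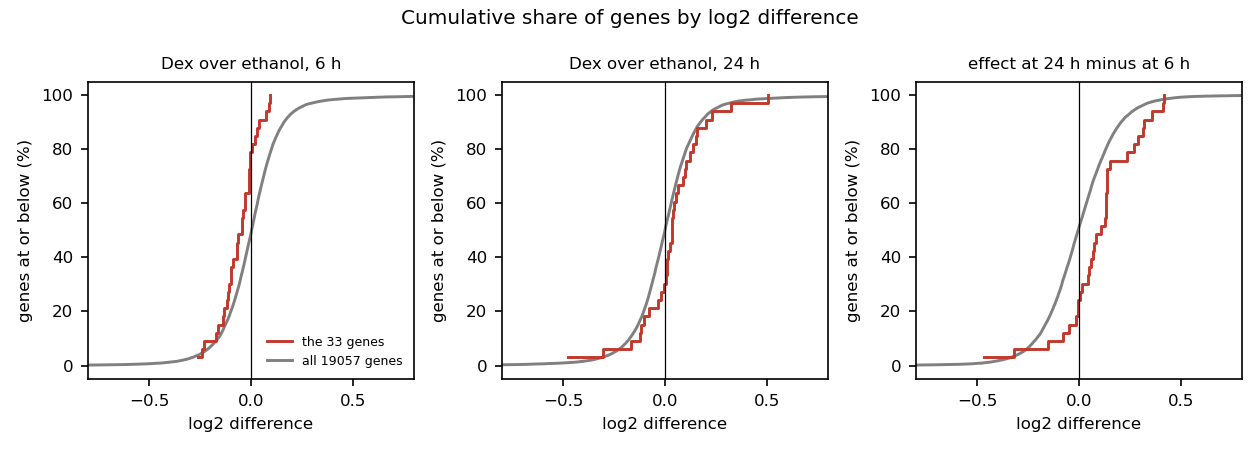
Cumulative share of genes (vertical axis, %) at or below a log2 difference (horizontal axis), for the 33 genes (red) and all 19057 genes (grey), for Dex over ethanol at 6 h and at 24 h and for the effect at 24 h minus that at 6 h. The red line lies to the left of the grey line over most of its length at 6 h (medians -0.05 and 0.0030) and to its right in the last panel (medians 0.11 and -0.0044).

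Of 61 other genes of glucose and glycogen metabolism listed, 53 were measured. At 6 h 2 rose and 2 fell (7.55%, beside 9.06% of all genes), with a median of 0.01. At 24 h 5 rose and 5 fell (18.9%, beside 16.5% of all genes), with a median of 0.01. Both shares are close to those over all genes. Once the missing directions were covariates, 3 were called at 6 h and 7 at 24 h. Phka2, the liver-type regulatory subunit of phosphorylase kinase, rose at both times, to 683.5 ± 46.1 with Dex against 434.4 ± 26.1 with ethanol at 6 h (SD, n = 4 each), and to 824.4 ± 74.1 with Dex against 480.7 ± 27.3 with ethanol at 24 h (SD, n = 5 each). Its log2 fold changes were 0.65 (SE 0.07, adjusted p = 7.09e-07) and 0.78 (SE 0.06, adjusted p = 3.95e-09). Txnip, an arrestin that lowers glucose uptake, rose by 0.80 at 6 h (SE 0.18, adjusted p = 0.0062), although the lowest Dex array (8704.7) lay below the highest ethanol array (9420.5). At 24 h it had 0.01, and the difference between the times was not called (-0.79, adjusted p = 0.0630). Gfpt1, which diverts glucose carbon to hexosamines, fell by 0.36 at 6 h, which was -0.04 and not called when its probes were averaged. Me1, the cytosolic malic enzyme, had -0.20 (adjusted p = 0.0489) and lost its call in 22 of 29 alternatives.

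At 24 h the transporter gene Slc2a6 (GLUT6) fell, to 3305 ± 561 with Dex against 5215 ± 659 with ethanol (n = 5 each, SD), or -0.67 on the log2 scale (SE 0.11, adjusted p = 1.39e-04). G6pc3, the widely expressed glucose 6-phosphatase, fell by 0.47 and the monocarboxylate transporter family gene Slc16a4 by 0.33. Tigar, a fructose-bisphosphatase that restrains glycolysis, rose by 0.31 on a dim probe. Phkg2, the liver catalytic subunit of phosphorylase kinase, rose by 0.23, which was 0.04 and not called when its probes were averaged.

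**Figure D4:**
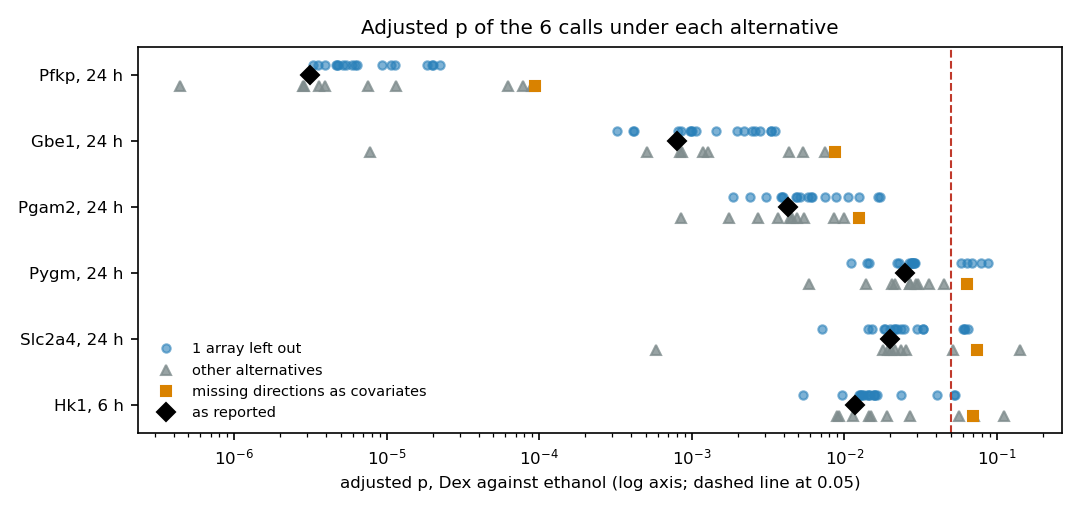
Adjusted p (log axis) of the 6 calls of Dex against ethanol as reported (diamonds), with 1 array left out (circles), with the missing directions as covariates (squares) and under the other alternatives (triangles), and the threshold of 0.05 as a dashed line. All points of Pfkp, Gbe1 and Pgam2 lie left of the line, whereas points of Pygm, Slc2a4 and Hk1 lie on both sides, up to 0.0883, 0.142 and 0.112.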

How the data were processed

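The authors deposited 1 table of probe intensity values on a linear scale for 45281 probes and 18 arrays. Per the submitters' processing notes lumi was used; its version and settings, and any background correction or normalization, are not stated there or elsewhere in the sources used here. Probes were named through the platform annotation, with 34807 symbols updated through the gene ID (GRCm38.p6) and 78 kept; 34885 probes had 1 symbol, 18 several and 10378 none. The brightest probe stood for each of 19057 genes.

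Intensities as deposited were taken to log2 with a pseudocount of 0 and fitted with limma 3.58.1 (R 4.3.3) over all 4 groups with no covariate, for Dex against ethanol at 6 h, at 24 h, and the difference between these effects. P-values were adjusted by Benjamini-Hochberg over all genes and called under 0.05. Intervals are 95% and cover the spread between arrays, whose number limits the precision. The alternatives were each array left out in turn and 11 other settings. All 33 genes are named; values per array are given for called genes, and for Slc2a3 and Pfkl, which were chosen after their values were seen, as were Bglap, Alb and Myf5. Of the other pathway genes, the called ones with the 6 smallest p per time are named, and Pgm1 and Phkb were added after their values were seen. The genes and lists were chosen with earlier results of these data known.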

Additional observations from a re-analysis of the deposited data

Results flagged for a closer look

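In 2 of the 132 sets of 4 or 5 arrays of 1 gene and group, 1 array stood apart from the rest of its group by Dixon's criterion, where chance would give about 6.6 (1 in 20). For Pfkm the gap was 0.724 of the range: ethanol replicate 4 at 24 h read 10722.7, below the other 4 ethanol arrays, which read 12655 to 13478.2. For Pfkl it was 0.825: ethanol replicate 5 at 24 h read 4026.4, above the other 4 ethanol arrays, which read 3133.1 to 3273.3.

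The test of the difference between the Dex effects at 24 h and 6 h called 3 of the 33 genes (9.09%), beside 4.94% of all genes. The log2 difference was 0.32 for Hk1, -0.47 for Pfkp and -0.32 for Gbe1. Hk1 and Gbe1 lost this call in 14 of 28 and 14 of 27 alternatives. With the missing directions as covariates only Pfkp kept it.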

How the results depend on the processing

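No call of the 33 genes reversed its direction under any of the 29 alternatives (28 for the difference between times). Pfkp, Gbe1 and Pgam2 were called at 24 h in all that could measure them; Gbe1, a dim gene, was outside the fit of bright genes. With the missing directions as covariates the genes called were 850 of all genes at 6 h (as reported 1726), 1694 at 24 h (3142) and 232 for the difference (942), and of the 33 genes 0, 3 and 1 (as reported 1, 5 and 3). Array weights gave 1079 genes at 6 h and 5552 at 24 h, with 10 of the 33 genes at 24 h, 6 for the difference, and 17 of the other pathway genes at 24 h (as reported 10). Fitting each time alone gave 908 genes and 0 of the 33 at 6 h. For the difference, the mean of a gene's probes, bright genes alone, and leaving out both 24 h arrays numbered 1 each gave 2 of the 33 genes.

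Leaving out 1 array in turn gave 1238 to 1827 genes at 6 h, 2370 to 3315 at 24 h and 633 to 1033 for the difference, of the 33 genes 0 to 2, 4 to 8 and 1 to 4, and of the other pathway genes 3 to 5 at 6 h and 8 to 12 at 24 h. The 8 came without ethanol replicate 5 at 24 h. The cause of these changes was not tested.

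Replicate numbers did not mark samples that deviated alike, and at 24 h the correlations of all 5 same-numbered pairs were negative. Deviations of same-numbered Dex and ethanol arrays correlated at -0.0797 to 0.256 at 6 h and -0.928 to -0.19 at 24 h, and 1 of 4 and 0 of 5 pairs correlated best with their own number. With the replicate number as a block, 1220 genes were called at 6 h, 2255 at 24 h and 532 for the difference, and of the 33 genes 0 at 6 h, 4 at 24 h, where Slc2a4 lost its call (adjusted p = 0.0517), and 1 for the difference. Whether the probes of the 7 dim genes lay above background is unknown, which limits what their folds can show.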

Other observations

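Phosphorylase kinase, which activates glycogen phosphorylase, is built from subunits of several genes, of which 5 were measured. At 24 h Phka2 had a log2 fold change of 0.78, Phkg2 0.23 and Phkb, the shared beta subunit, -0.36 (SE 0.10, limma adjusted p = 0.0171), while the muscle subunit genes Phka1 and Phkg1 had 0.00 and 0.03 and were not called. Phkb read 428.8 ± 40.2 with Dex and 551.6 ± 59.4 with ethanol (SD, n = 5 each) and was chosen after its values were seen. At 6 h Phkb had 0.13 (adjusted p = 0.578), and the difference between the times was not called (-0.49, adjusted p = 0.0674).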
